A study of Mus musculus with 17 samples.

Results

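The collagen chains are the genes whose mouse symbol is Col, a number, the letter a and a number. Of 16569 genes with a RefSeq messenger RNA entry, 43 were collagen chains. Col12a1 had no entry and was not analysed here. The 43 genes had 50 entries, and 6 genes had more than 1, of which the entry with the highest mean over the libraries was used. By class there were 11 fibrillar chains, 8 basement-membrane chains, 8 fibril-associated chains with interrupted triple helices (FACIT), 7 beaded-filament and anchoring-fibril chains, 3 hexagonal-network chains, 4 transmembrane chains and 2 others. The mice were male C57Bl/6, with no genetic change or treatment named in the labels, and RNA of each ventricle, left (LV) or right (RV), was sequenced on the day of birth (P0) and at 3 and 7 days of age (P3 and P7). There were 3 libraries of each chamber and age except RV P7, which had 2. The submitters place P0 before closure of the ductus arteriosus, P3 at a transition and P7 when most cardiomyocytes reach their final differentiation. The labels call the libraries biological replicates and do not say how many animals gave each, so p-values measure the spread between these libraries.

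Collagens are secreted proteins of 3 alpha chains wound into a triple helix, and each type is defined by the chains it combines. Fibrillar chains form the tension-bearing fibrils between heart muscle cells, made chiefly by fibroblasts. Type IV chains form the sheet of the basement membrane around myocytes and vessels, and other classes link, coat or anchor these structures. After birth the ventricles grow while the load on the left chamber rises and that on the right falls, and the matrix is laid down over the same days.

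Levels are in RPKM, reads scaled to transcript length and to the size of the library, which allows levels to be compared between genes. The libraries held an estimated 27.6 to 41.1 Mreads (1 Mread is 1e+06 reads), with a median of 36.2 Mreads. These sizes were inferred from the whole-read steps of low values, starting from a preset range, and no read counts were at hand. The summed level of 8 cardiomyocyte markers lay between 3544 and 5091 RPKM in the 17 libraries, with none at 0. The libraries differed beyond chamber and age: in 7 of the 11 P3 and P7 libraries the level of NM_008710 was only 0.128 to 0.205 RPKM (numbers 2 and 3 of LV P3, LV P7 and RV P3, and number 2 of RV P7), and it was 2.99 RPKM or more in all others. No P0 library was low, so this state is partly mixed with age in every comparison with P0. Counts of changed chains are therefore also given for the other 10 libraries alone where they differ. Changes are log2 changes of RPKM + 1 from limma, which understate the change of low transcripts, and a chain is said to rise or fall where the Benjamini-Hochberg adjusted p over 10668 tested entries is under 0.05. An entry was tested if it reached 1 RPKM in at least 2 libraries. This held for 26 of the 43 chains: 9 of 11 fibrillar, 6 of 8 basement-membrane, 4 of 8 FACIT, 3 of 7 beaded-filament and anchoring, 1 of 3 hexagonal-network, 2 of 4 transmembrane and 1 of 2 other chains. The filter keeps a chain that is high in 1 group only, so counts over the 26 are not counts over the family. Col24a1 and Col9a1 reached 1 RPKM only at P3, and Col4a4 and Col8a1 only at P3 and P7. Col4a6, Col13a1 and Col23a1 reached it only at P0 and P3. For these chains a higher level at those ages is favoured by the filter. Of the 17 untested chains, 13 stayed under 1 RPKM in every library.

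A few chains carried most of the collagen RNA. Col3a1, the single chain of type III collagen, had the highest mean over the 17 libraries at 390.4 RPKM. Col4a1 (238 RPKM) and Col4a2 (169 RPKM), which together form the common type IV molecule, and Col1a1 (189.6 RPKM) and Col1a2 (168 RPKM), which form type I collagen, came next. The type VI chains Col6a2 and Col6a1 followed at 98.7 and 89.3 RPKM, then Col15a1 (45.9), Col5a2 (45.6), Col5a1 (45.1) and Col14a1 (26.9), and every other chain had a mean of 6.93 RPKM or less. The summed level of the 43 chains was 1289 ± 154 RPKM (SD, n = 3) at P0, 1508 ± 285 at P3 and 1834 ± 136 at P7 in the LV. The RV sum was 1157 ± 139.8 at P0, 1734 ± 212 at P3 and 1849 ± 104 at P7 (n = 2). The P0 and P7 libraries did not overlap in either chamber.

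**Figure D1:**
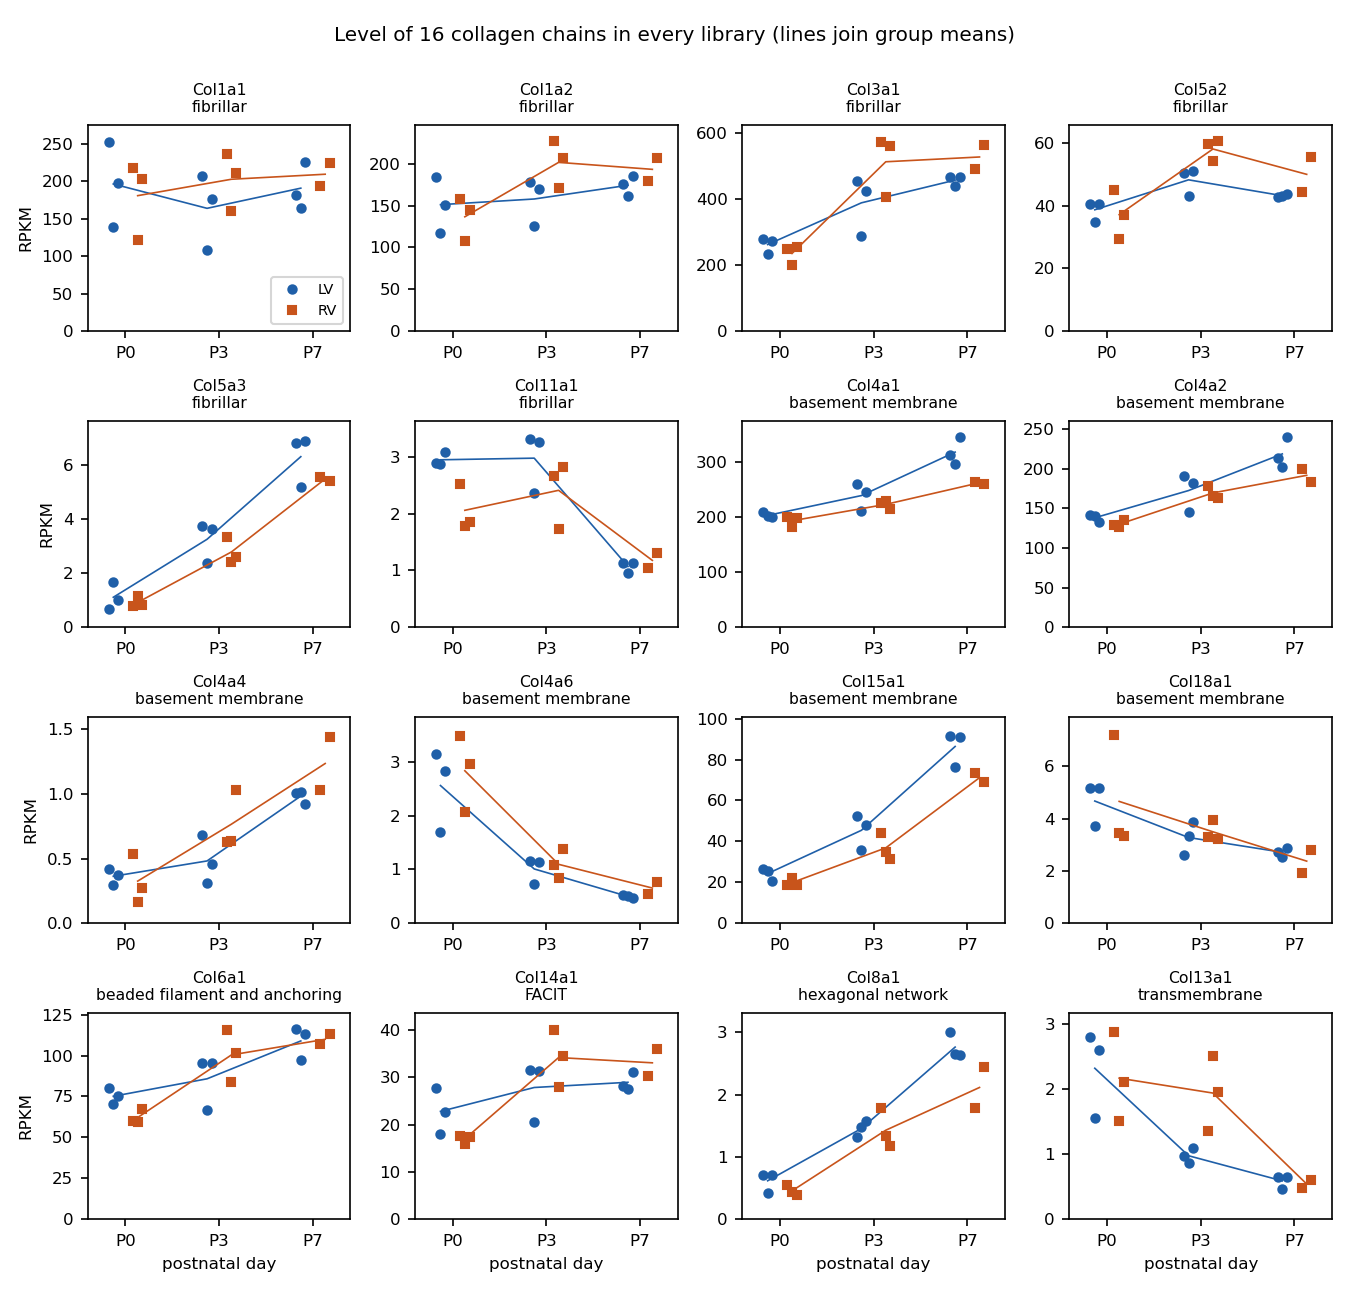
Level of 16 collagen chains in each library, in RPKM on linear axes from 0, against postnatal day; blue circles are LV libraries, orange squares are RV libraries, and lines join group means. Col3a1 and Col15a1 are higher in every P7 library than in every P0 library, Col4a6 and Col13a1 are lower, and Col1a1 overlaps at all ages.

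Fibrillar chains held 54.3% ± 3.39 (SD, n = 3) of the summed collagen RPKM in LV P0 and 50.3% ± 0.383 in LV P7. In the RV their share was 54.5% ± 3.90 at P0, 59.4% ± 2.77 at P3 and 55.9% ± 2.52 at P7. Basement-membrane chains held 29.3% ± 3.13 in LV P0 and 34.3% ± 0.517 in LV P7. Their share in the RV was 30.7% ± 2.81 at P0, 25.4% ± 3.20 at P3 and 28.8% ± 2.46 at P7. All 3 LV P7 libraries had a higher basement-membrane share than any other library of P3 or P7, and at P0 the groups of the chambers overlapped. Beaded-filament and anchoring chains held 10.5% to 13.9% of the sum in the 17 libraries, and FACIT chains 1.98% to 2.86%. These shares rest on RPKM sums in which 5 chains dominate and were not tested.

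**Figure D2:**
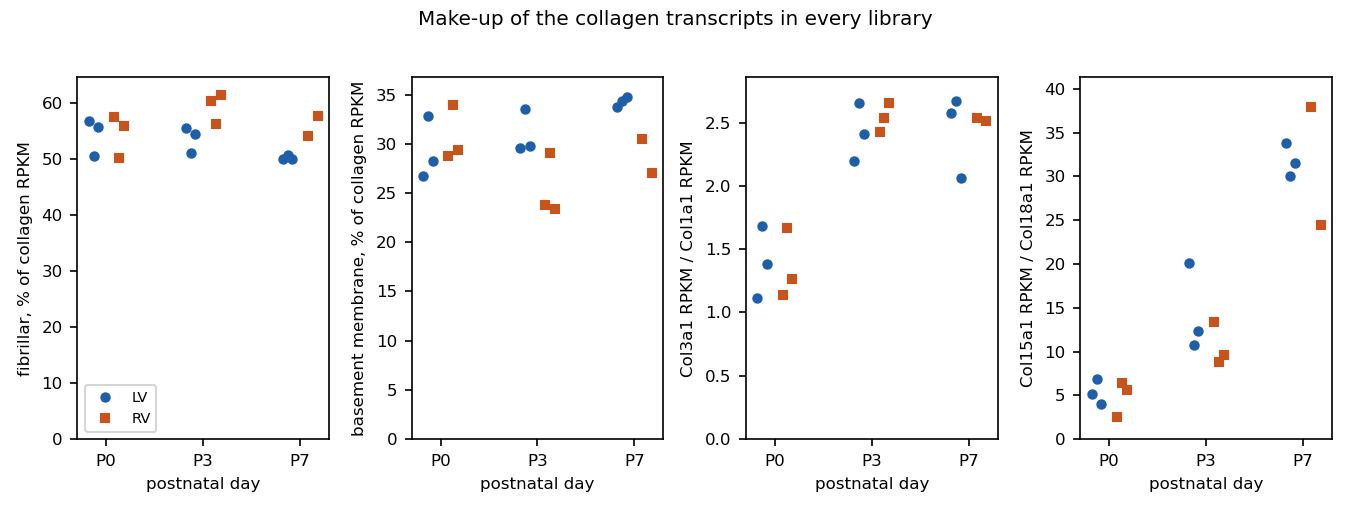
Share of fibrillar and of basement-membrane chains in the summed collagen RPKM (percent), and the ratios of Col3a1 to Col1a1 and of Col15a1 to Col18a1, in each library against postnatal day (blue circles LV, orange squares RV). Both ratios are higher in every P3 and P7 library than in every P0 library of either chamber.

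From P0 to P7 the abundant type III, type IV and type VI chains rose in both chambers, as did the less abundant Col5a3, Col8a1 and Col4a4 and the vessel-associated Col15a1. Col4a6, Col11a1, Col18a1 and the transmembrane chains Col13a1 and Col23a1 fell in both. Col1a1 did not pass the test in either. In the LV, 10 of the 26 tested chains rose and 5 fell, where 11.8% of all tested entries rose and 53.0% fell. In the RV, 13 rose and 5 fell, where 9.81% of all tested entries rose and 46.1% fell. The share of chains that rose stood above that of all entries and the share that fell below it, in both chambers. These shares include chains whose direction the filter favoured. They were Col4a4 and Col8a1 among the rises, and Col4a6, Col13a1 and Col23a1 among the falls. Over the tested chains the median log2 change reached 0.19 for the LV and 0.44 for the RV, against -0.31 and -0.29 over all tested entries.

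The excess of falling entries depends on how libraries are scaled. Upper-quartile scaling moved the median of all tested entries to -0.02 in both chambers. Then 15 chains rose and 4 fell in the LV (24.4% and 25.3% of all tested entries), and 17 rose and 3 fell in the RV (19.8% and 20.6%). In the 10 libraries with NM_008710 at 1 RPKM or more, each P7 group is 1 library, which the fit assumes to vary like the other groups. There 9 rose and 3 fell in the LV (8.30% and 28.2% of all tested entries), and 11 rose and 4 fell in the RV (6.19% and 33.9%). No called chain changed direction under any alternative.

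**Figure D3:**
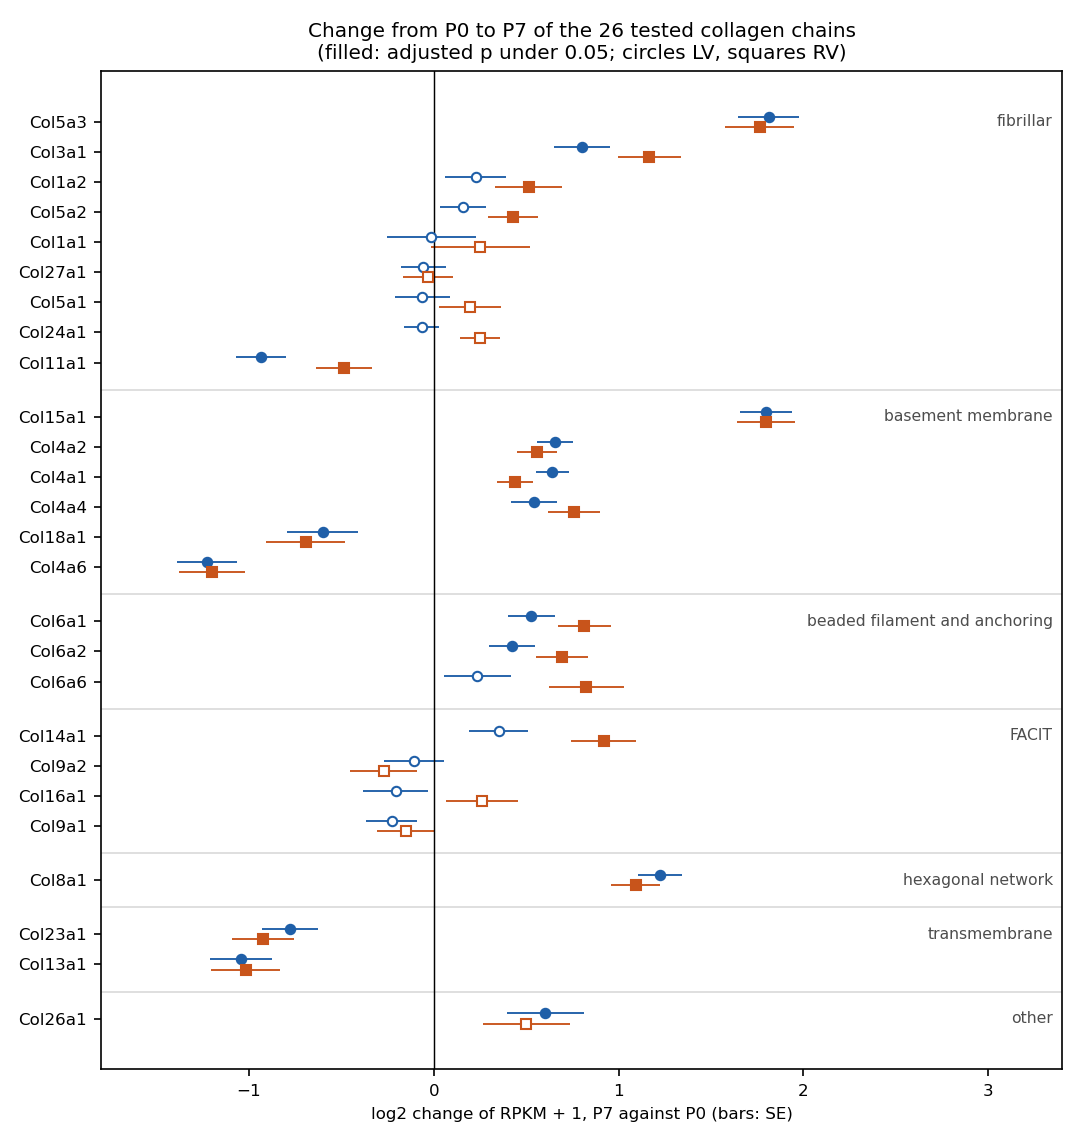
Log2 change of RPKM + 1 from P0 to P7 for the 26 tested chains, grouped by class; blue circles are the LV, orange squares the RV, bars are standard errors, and filled symbols have a limma adjusted p under 0.05. Fibrillar and basement-membrane chains lie on both sides of 0, the 3 type VI chains lie to the right of it and the transmembrane chains Col13a1 and Col23a1 to the left.

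Among fibrillar chains, 2 of 9 tested rose in the LV and 1 fell, and 4 rose in the RV and 1 fell. Of all tested entries 11.8% rose and 53.0% fell in the LV, and 9.81% and 46.1% in the RV. Median log2 changes of the 9 chains were -0.01 (LV) and 0.25 (RV), or 0.34 and 0.58 after upper-quartile scaling. Col3a1 (chromosome 1, 45311538 to 45349706, GRCm38), whose type III fibrils are prominent in young and elastic tissue, stood at 281, 235 and 273 RPKM in LV P0 and at 467, 440.4 and 467 RPKM in LV P7. In the RV its levels were 248, 202 and 257 RPKM at P0 and 492 and 565 RPKM at P7. No P7 library overlapped with a P0 library. The log2 change was 0.80 ± 0.15 (SE) in the LV, with a limma adjusted p of 0.000162, and 1.17 ± 0.17 in the RV, with a limma adjusted p of 1.87e-05.

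The type I chains behaved otherwise. Col1a1 (chromosome 11, 94936224 to 94953042), the chain that enters each type I molecule as a pair, stood at 253, 139 and 197 RPKM in LV P0 and at 182, 165 and 226 RPKM in LV P7. RV levels were 218, 121 and 203 RPKM at P0 and at 194 and 225 RPKM at P7. The ages overlapped, and the log2 change was -0.01 ± 0.24 (LV) and 0.25 ± 0.27 (RV) (limma adjusted p of 0.965 and 0.436). Its partner Col1a2 stood at 185, 117 and 151 RPKM in LV P0 and 176, 162 and 185 RPKM in LV P7, which overlap. In the RV Col1a2 went from 158, 107 and 144 RPKM to 179.6 and 207 RPKM and rose by 0.51 ± 0.18 (limma adjusted p = 0.0237), a call that was lost under 4 alternatives, among them leaving out RV P0 replicate 2 or RV P7 replicate 2.

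The balance of type III and type I RNA at P3 and P7 stood apart from that at P0. The LV ratio of Col3a1 to Col1a1 was 1.39 ± 0.288 (SD, n = 3) at P0, 2.42 ± 0.230 at P3 and 2.44 ± 0.324 at P7. The RV ratio was 1.36 ± 0.275, 2.54 ± 0.113 and 2.52 ± 0.0209 (n = 2). The highest P0 ratio in a library was 1.69 and the lowest at P3 or P7 was 2.07, so the ages after birth did not overlap with P0. The ratio of Col1a1 to Col1a2 was 1.29 ± 0.0926 in LV P0 and 1.09 ± 0.112 in LV P7, and 1.31 ± 0.151 and 1.08 ± 0.00536 in the RV. These ratios were not tested.

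Type V chains regulate the width of fibrils and are built into type I fibrils. Col5a1 stood at 56.7, 40.8 and 46.6 RPKM in LV P0 and at 46.0, 40.5 and 50.7 RPKM in LV P7, and did not pass the test in either chamber (log2 changes of -0.06 and 0.20). Col5a2 went from 44.9, 29.5 and 36.9 RPKM in RV P0 to 44.3 and 55.6 RPKM in RV P7 and rose there by 0.43 ± 0.14 (limma adjusted p = 0.0126). The P0 and P7 libraries of Col5a2 overlapped, and the call was lost under 4 alternatives. In the LV the log2 change of Col5a2 was 0.16 ± 0.12 (limma adjusted p = 0.26).

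The third type V chain, Col5a3 (chromosome 9, 20770050 to 20815117), rose at each step in both chambers. It stood at 0.664, 1.66 and 0.990 RPKM in LV P0, at 3.73, 2.37 and 3.64 RPKM in LV P3 and at 6.83, 5.19 and 6.89 RPKM in LV P7. In the RV its levels were 0.769, 1.15 and 0.829 RPKM at P0, 3.348, 2.41 and 2.59 RPKM at P3 and 5.55 and 5.41 RPKM at P7. The 3 ages did not overlap with each other in either chamber. The ratio of group means was 5.71 (LV) and 5.99 (RV), and the log2 changes were 1.81 ± 0.17 and 1.76 ± 0.19 (limma adjusted p of 3.83e-08 and 4.26e-07). Even so, Col5a3 reached only 0.138 of the level of Col5a1 in LV P7 and 0.123 in RV P7, from 0.0245 and 0.0241 at P0.

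Of 38 windows of 250 bases before a RefSeq start of a collagen chain (promoter table of GRCm38.p6), 6 held no GENCODE exon and lay outside the RefSeq span of their gene. The windows of the fibrillar chains Col3a1 and Col24a1 and of the hexagonal-network chain Col8a1 are among the 6 and show how composition differs. They lie at chr1:45311288-45311537 (plus strand), chr3:145292222-145292471 (plus strand) and chr16:57754738-57754987 (minus strand) in GRCm38. Capitals mark the letters TATAAA of the TATA box. They also mark the CCAAT box, which is spelled by its name. The GC box, marked likewise, is spelled GGGCGG. All were searched on both strands.
Col3a1: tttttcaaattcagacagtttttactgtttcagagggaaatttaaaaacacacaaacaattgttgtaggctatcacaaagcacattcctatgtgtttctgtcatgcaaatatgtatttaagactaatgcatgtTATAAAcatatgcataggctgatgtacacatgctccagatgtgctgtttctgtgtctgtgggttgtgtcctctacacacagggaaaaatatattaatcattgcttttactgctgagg
Col24a1: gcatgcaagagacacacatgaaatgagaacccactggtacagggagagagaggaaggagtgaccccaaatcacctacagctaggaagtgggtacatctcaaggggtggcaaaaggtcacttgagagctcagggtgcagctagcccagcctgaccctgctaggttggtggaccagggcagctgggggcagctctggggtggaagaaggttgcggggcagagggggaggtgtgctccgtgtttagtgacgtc
Col8a1: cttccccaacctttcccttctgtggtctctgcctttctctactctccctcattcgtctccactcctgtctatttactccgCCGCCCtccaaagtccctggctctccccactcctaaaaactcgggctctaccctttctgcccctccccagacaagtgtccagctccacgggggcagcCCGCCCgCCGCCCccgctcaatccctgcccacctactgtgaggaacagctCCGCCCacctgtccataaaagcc
The Col3a1 window is 35.2% G or C, with 1 TATAAA and no CpG. The Col24a1 window is 58.0% G or C, with 3 CpG and none of the motifs, and the Col8a1 window 60.8%, with 10 CpG and 4 GC boxes. Over 32851 windows of the table the median was 52.4% G or C and 6 CpG, and 12.4% held TATAAA, 33.8% CCAAT and 32.7% GGGCGG. A match describes letters only.

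Col11a1, a minor fibrillar chain best known from cartilage, fell. It stood at 2.89, 2.88 and 3.08 RPKM in LV P0, 3.31, 2.36 and 3.26 RPKM in LV P3 and 1.12, 0.948 and 1.13 RPKM in LV P7. RV levels were 2.53, 1.79 and 1.86 RPKM at P0 and at 1.05 and 1.31 RPKM at P7. The P7 libraries lay below all P0 and P3 libraries in both chambers. The log2 change was -0.93 ± 0.14 in the LV (limma adjusted p = 1.07e-05) and -0.49 ± 0.15 in the RV (limma adjusted p = 0.0117), and the RV call was lost with upper-quartile scaling or without RV P0 replicate 1 or RV P7 replicate 1. Of the low chains, Col27a1 lay between 0.846 and 1.47 RPKM in all libraries and passed no test against P0, Col11a2 had group means of 0.121 to 0.448 RPKM, and Col2a1, the main cartilage chain, was at 0 in 13 of 17 libraries. The summed level of 7 valve and cartilage markers was 6.00 to 11.97 RPKM in the 17 libraries, with Matn1 at 0 in 4 of the 6 groups.

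Of the basement-membrane class, all 6 tested chains changed in both chambers, 4 upward and 2 downward. Col18a1, which fell, was not called in either chamber after upper-quartile scaling. Of all tested entries 11.8% rose and 53.0% fell in the LV, and 9.81% and 46.1% in the RV. Col4a4 reached 1 RPKM only at P3 and P7 and Col4a6 only at P0 and P3, so the filter favoured their directions. Median log2 changes of the 6 chains were 0.59 (LV) and 0.50 (RV), or 0.84 and 0.82 after upper-quartile scaling. The 6 type IV genes lie in 3 pairs whose members start next to each other and are read in opposite directions, and the members of each pair moved the same way, where Col4a3 and Col4a5 were tested only without the filter. The Col4a1 and Col4a2 pair (chromosome 8) and the Col4a3 and Col4a4 pair (chromosome 1) rose, and the Col4a5 and Col4a6 pair (X chromosome) fell.

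Col4a1 (chromosome 8, 11198423 to 11312889, minus strand) stood at 208, 201 and 199 RPKM in LV P0, at 259.8, 211 and 246 RPKM in LV P3 and at 312, 296 and 346 RPKM in LV P7. RV levels were 199, 182 and 198 RPKM at P0, at 226, 229 and 214 RPKM at P3 and at 264 and 261 RPKM at P7. The 3 ages did not overlap in either chamber. It rose by 0.64 ± 0.09 in the LV (limma adjusted p = 4.6e-06) and by 0.44 ± 0.10 in the RV (limma adjusted p = 0.000958). Col4a2 (11312805 to 11449287, plus strand) went from 142, 140.01 and 132 RPKM to 214, 202 and 240.5 RPKM in the LV and from 129, 127 and 135 RPKM to 199.8 and 184 RPKM in the RV. It rose by 0.66 ± 0.10 and 0.56 ± 0.11 (limma adjusted p of 1.15e-05 and 0.00031). The ratio of Col4a1 to Col4a2 stayed between 1.26 and 1.55 in the 17 libraries.

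The annotated gene spans of Col4a1 and Col4a2 overlap by 85 bases, and their RefSeq starts enclose 22 bases at chr8:11312805-11312826 (GRCm38, plus strand), shown because they lie inside the first transcribed bases of both genes, which are read in opposite directions. The capitals mark a GC box (GGGCGG).
Col4a1 and Col4a2 starts: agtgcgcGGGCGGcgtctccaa
The spans of Col4a3 and Col4a4 overlap by 114 bases, and those of Col4a5 and Col4a6 lie 1274 bases apart.

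The Col4a3 and Col4a4 chains, which with Col4a5 form the type IV network of the kidney glomerulus, were scarce in these ventricles. Col4a4 stood at 0.418, 0.298 and 0.372 RPKM in LV P0 and at 1.01, 1.02 and 0.925 RPKM in LV P7, and at 0.538, 0.165 and 0.272 RPKM in RV P0 and 1.03 and 1.44 RPKM in RV P7. It rose by 0.54 ± 0.13 in the LV and 0.76 ± 0.14 in the RV (limma adjusted p of 0.00111 and 0.000224). Col4a3 reached 1 RPKM in 1 library and so was not among the tested chains. Its levels were 0.277, 0.305 and 0.400 RPKM in LV P0 and 0.947, 0.878 and 0.9796 RPKM in LV P7, with no overlap. In a fit without the filter it rose by 0.54 ± 0.09 in the LV and 0.73 ± 0.10 in the RV (limma adjusted p of 0.000207 and 8.62e-05), where 7.68% and 6.04% of 20624 entries rose. Col4a3 and Col4a4 lie on opposite strands, and the sources used here do not say whether strand was used in counting.

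Col4a6 (X chromosome, 141165403 to 141474095, minus strand) fell early and steeply. It stood at 3.15, 1.70 and 2.84 RPKM in LV P0, 1.16, 0.726 and 1.14 RPKM in LV P3 and 0.520, 0.503 and 0.467 RPKM in LV P7. RV levels went from 3.48, 2.06 and 2.97 RPKM to 1.08, 0.835 and 1.37 RPKM and then to 0.545 and 0.761 RPKM. The 3 ages did not overlap in either chamber. The log2 changes were -1.23 ± 0.16 (LV) and -1.20 ± 0.18 (RV) (limma adjusted p of 3.1e-06 and 2.43e-05), and the group mean was 5.16-fold lower at P7 than at P0 in the LV and 4.34-fold lower in the RV.

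Col4a5 reached 1 RPKM in 1 library and was not among the tested chains. It went from 0.977, 0.711 and 0.801 RPKM in LV P0 to 0.294, 0.324 and 0.228 RPKM in LV P7, and from 1.13, 0.641 and 0.818 RPKM to 0.336 and 0.379 RPKM in the RV. No P7 library overlapped with P0. Without the filter its log2 change was -0.51 ± 0.10 and -0.45 ± 0.11 (limma adjusted p of 0.00133 and 0.00905), where 29.9% and 23.6% of entries fell. The ratio of Col4a6 to Col4a5 was 3.05 ± 0.597 in LV P0 and 1.79 ± 0.249 in LV P7, and 3.31 ± 0.293 and 1.82 ± 0.274 in the RV.

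**Figure D4:**
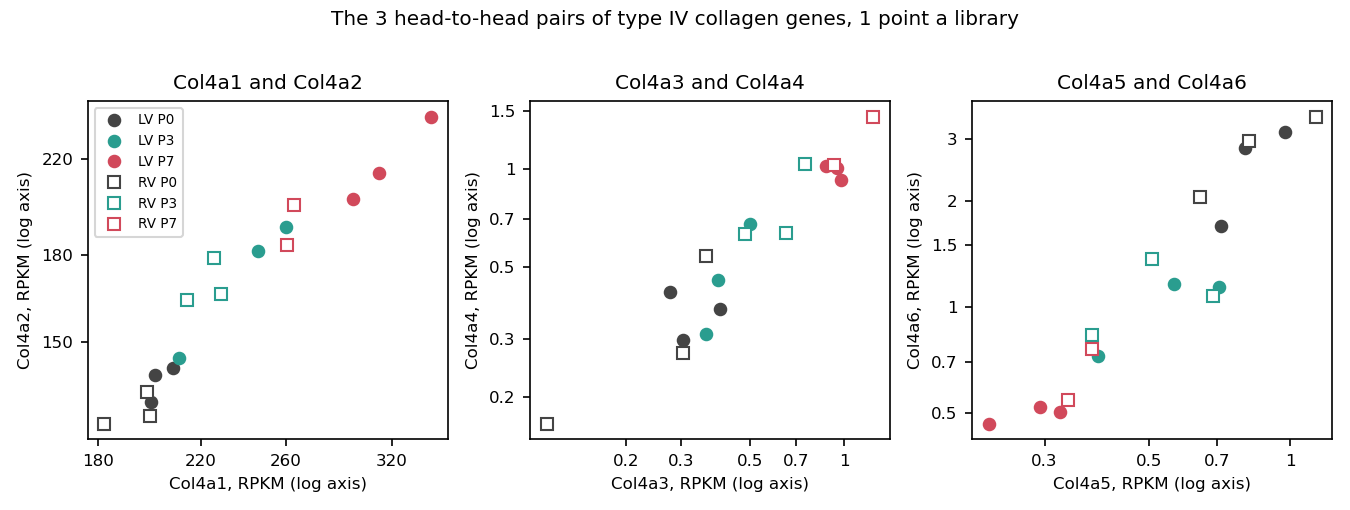
Levels of the members of the 3 type IV gene pairs against each other, in RPKM on log axes, with 1 point for each library (filled circles LV, open squares RV; grey P0, green P3, red P7). P7 libraries lie at the upper right for Col4a1 with Col4a2 and for Col4a3 with Col4a4, and at the lower left for Col4a5 with Col4a6.

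Col15a1 and Col18a1 are the multiplexin chains of basement membranes, related to each other in structure, and they moved in opposite directions. Col15a1 (chromosome 4, 47207655 to 47313167), found in muscle and around capillaries, stood at 26.6, 25.3 and 20.7 RPKM in LV P0, at 52.5, 35.8 and 47.9 RPKM in LV P3 and at 91.6, 76.5 and 91.1 RPKM in LV P7. RV levels were 18.4, 22.3 and 18.7 RPKM, then 44.3, 34.9 and 31.2 RPKM, then 73.5 and 68.8 RPKM. The ages did not overlap in either chamber. It rose by 1.80 ± 0.14 in the LV and 1.80 ± 0.16 in the RV (limma adjusted p of 4.78e-09 and 3.94e-08), with group means 3.57-fold and 3.59-fold higher at P7.

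Col18a1, the precursor of the fragment endostatin, stood at 5.16, 3.70 and 5.17 RPKM in LV P0 and at 2.71, 2.55 and 2.88 RPKM in LV P7. In the RV it stood at 7.197, 3.45 and 3.33 RPKM at P0 and at 1.94 and 2.81 RPKM at P7. It fell by 0.60 ± 0.19 in the LV and by 0.69 ± 0.21 in the RV (limma adjusted p of 0.0103 and 0.0107). Neither call held with upper-quartile scaling (log2 changes of -0.32 and -0.45), and the RV call also needed RV P0 replicate 1, the highest library, and RV P7 replicate 1. The ratio of Col15a1 to Col18a1 was 5.34 ± 1.42 at P0, 14.4 ± 5.04 at P3 and 31.8 ± 1.92 at P7 in the LV, and 4.88 ± 2.05, 10.6 ± 2.44 and 31.2 ± 9.54 in the RV.

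Type VI collagen forms beaded filaments close to cell surfaces. Its chains Col6a1 and Col6a2, neighbours on chromosome 10, rose in both chambers. Col6a1 stood at 80.2, 70.2 and 75.0 RPKM in LV P0 and at 116, 97.2 and 113 RPKM in LV P7, and at 60.0, 59.4 and 67.1 RPKM in RV P0 and 107 and 113 RPKM in RV P7. The P0 and P7 libraries did not overlap in either chamber. The log2 changes were 0.53 ± 0.13 and 0.82 ± 0.14 (limma adjusted p of 0.00155 and 0.00013). Col6a2 rose by 0.42 ± 0.12 and 0.69 ± 0.14 (limma adjusted p of 0.00641 and 0.000421). Col6a6 rose in the RV, from 2.18, 1.83 and 2.33 RPKM to 3.95 and 5.12 RPKM (log2 change 0.83 ± 0.20, limma adjusted p = 0.00221). In the LV the Col6a6 libraries of P0 and P7 overlapped (log2 change 0.23 ± 0.18, limma adjusted p = 0.26).

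Col6a3, the third chain of the common type VI molecule, was listed far below its partners, at 0.0999 to 0.491 RPKM. Both of its listed entries were low, and the sources used here do not say how reads shared between entries were assigned, so this value may leave out reads of the gene. The anchoring-fibril chain Col7a1 had group means of 0.0602 to 0.161 RPKM, and Col6a4 and Col6a5 had group means of at most 0.0412 RPKM. Without the filter Col6a3 (-0.23 ± 0.09), Col7a1 (-0.11 ± 0.04) and Col6a5 (-0.05 ± 0.02) fell in the LV from P0 to P7 (limma adjusted p of 0.0489, 0.0419 and 0.0276), where 29.9% of 20624 entries fell.

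FACIT chains sit on the surface of fibrils. Of the 4 tested, only Col14a1 rose, and only in the RV, where 9.81% of all tested entries rose. It stood at 17.6, 15.9 and 17.4 RPKM in RV P0, 39.99, 27.9 and 34.6 RPKM in RV P3 and 30.2 and 35.9 RPKM in RV P7, and rose by 0.92 ± 0.18 from P0 to P7 (limma adjusted p = 0.000305). In the LV it stood at 27.8, 17.98 and 22.6 RPKM at P0 and at 28.2, 27.6 and 31.1 RPKM at P7, with overlap (log2 change 0.35 ± 0.16, limma adjusted p = 0.0598). The difference between the chambers in this change was 0.57 ± 0.24 and did not pass the test (limma adjusted p = 0.956). Col16a1 had group means of 5.71 to 8.84 RPKM and log2 changes of -0.21 and 0.26.

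The type IX chains Col9a1, Col9a2 and Col9a3, known from cartilage, had their highest group means at P3. Col9a1 had group means of 0.535, 0.975 and 0.309 RPKM at P0, P3 and P7 in the LV and 0.449, 0.831 and 0.309 RPKM in the RV. Col9a2 had group means of 1.29, 1.43 and 1.105 RPKM in the LV and 1.203, 1.62 and 0.824 RPKM in the RV. Col9a3, which was not among the tested chains, had group means of 0.565, 0.706 and 0.169 RPKM in the LV and 0.453, 0.594 and 0.324 RPKM in the RV. Without the filter Col9a3 fell in the LV from P0 to P7 (-0.42 ± 0.12, limma adjusted p = 0.0133), and in the RV the change was -0.14 ± 0.13 (limma adjusted p = 0.515). From P3 to P7, Col9a1 fell in both chambers (log2 changes of -0.60 ± 0.14 and -0.48 ± 0.15, limma adjusted p of 0.0032 and 0.0397) and Col9a2 in the RV (-0.53 ± 0.18, limma adjusted p = 0.0496). Neither chain passed the test from P0 to P3. Col9a1 reached 1 RPKM only in LV P3 library 1 and RV P3 library 1, so the filter favours its fall from P3. Col19a1, Col20a1 and Col22a1 had group means of at most 0.222 RPKM.

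Col8a1, a short chain of the hexagonal networks under vascular endothelium, rose in both chambers. It stood at 0.710, 0.424 and 0.711 RPKM in LV P0, 1.31, 1.48 and 1.57 RPKM in LV P3 and 3.00, 2.65 and 2.64 RPKM in LV P7. In the RV it went from 0.548, 0.429 and 0.383 RPKM to 1.78, 1.33 and 1.17 RPKM and then to 1.78 and 2.45 RPKM. All P3 and P7 libraries lay above all P0 libraries. The log2 change from P0 was 1.22 ± 0.12 (LV) and 1.09 ± 0.13 (RV) (limma adjusted p of 9.42e-08 and 2.57e-06). Its partner Col8a2 stayed under 1 RPKM in every library, with group means of 0.486 to 0.742 RPKM, and Col10a1 of hypertrophic cartilage had group means of at most 0.0247 RPKM.

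Of 4 transmembrane chains 2 were tested, and both fell, where 53.0% (LV) and 46.1% (RV) of all tested entries fell. Col13a1 and Col23a1 reached 1 RPKM only at P0 and P3, so the filter favoured a fall to P7. Col13a1, found at cell junctions, stood at 2.80, 1.55 and 2.60 RPKM in LV P0, 0.965, 0.855 and 1.098 RPKM in LV P3 and 0.650, 0.457 and 0.654 RPKM in LV P7. In the RV it stood at 2.87, 1.51 and 2.11 RPKM at P0, 1.35, 2.50 and 1.96 RPKM at P3 and 0.477 and 0.600 RPKM at P7. The P3 libraries lay below all P0 libraries in the LV and overlapped with them in the RV. The log2 change from P0 to P7 was -1.04 ± 0.17 (LV) and -1.02 ± 0.19 (RV) (limma adjusted p of 3.04e-05 and 0.000193).

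Col23a1 went from 1.36, 0.637 and 0.915 RPKM to 0.184, 0.0903 and 0.136 RPKM in the LV and from 1.998, 0.916 and 1.39 RPKM to 0.215 and 0.312 RPKM in the RV. No P7 library overlapped with P0, and the log2 changes were -0.78 ± 0.15 and -0.92 ± 0.17 (limma adjusted p of 0.000207 and 0.00018). The LV call was lost, at an adjusted p of 0.0515, in the 10 libraries with NM_008710 at 1 RPKM or more. Col17a1 and Col25a1 had group means of at most 0.0773 RPKM.

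Of the other chains, Col26a1 went from 6.67, 3.65 and 4.17 RPKM in LV P0 to 9.75, 6.17 and 7.39 RPKM in LV P7, which overlap. It rose by 0.60 ± 0.21 in the LV (limma adjusted p = 0.0169), a call lost under 5 alternatives, among them leaving out LV P0 replicate 2, LV P0 replicate 3 or LV P7 replicate 1. In the RV its log2 change was 0.50 ± 0.23 (limma adjusted p = 0.0748). Col28a1, known from peripheral nerve, was not among the tested chains. Its group means were 0.102, 0.558 and 0.536 RPKM in the LV and 0.0853, 0.798 and 0.448 RPKM in the RV, and without the filter it rose from P0 to P7 by 0.47 ± 0.13 and 0.41 ± 0.14 (limma adjusted p of 0.00932 and 0.0426). All P3 and P7 libraries of Col28a1 lay above all P0 libraries. The summed level of 6 Schwann cell and neuron markers was 1.70 to 2.70 RPKM over the libraries.

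Markers of the cells that could make these chains moved over the same days, and in bulk ventricle fewer cells of a type and less RNA per cell cannot be told apart. The summed level of 8 fibroblast markers was 177 to 192 RPKM in LV P0 and 430.2 to 463 RPKM in LV P7, and 182 to 191 RPKM and 424 to 569 RPKM in the RV. Of the 6 tested, 4 rose and 1 fell in each chamber. Pericyte markers went from 67.3 to 77.8 RPKM up to 284 to 326 RPKM in the LV, with 3 of 4 tested rising and 1 falling in each chamber. Endothelial markers went from 210.4 to 239 RPKM up to 391 to 443 RPKM in the LV and from 207 to 259.8 RPKM up to 308 to 314 RPKM in the RV, with 5 of 8 rising in the LV and 4 rising and 1 falling in the RV. Epicardial markers went from 35.1 to 76.1 RPKM down to 16.3 to 24.96 RPKM in the LV, with 5 of 6 falling, and 4 of 6 fell in the RV, or 5 and 1 after upper-quartile scaling. These marker counts stand against the 53.0% (LV) and 46.1% (RV) of all tested entries that fell and the 11.8% and 9.81% that rose. Smooth muscle markers went from 633 to 749 RPKM down to 225 to 274 RPKM in the LV, with 1 of 5 tested rising and 2 falling in each chamber. None of these markers was at 0 throughout a group. Their part in the collagen changes was not tested.

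The steps between ages differed in how many chains passed the test. From P0 to P3 in the LV, 5 of 26 tested chains rose (Col15a1, Col3a1, Col4a2, Col5a3 and Col8a1) and 3 fell (Col13a1, Col23a1 and Col4a6), where 7.26% of all tested entries rose and 20.6% fell. In the RV 14 rose and 2 fell, where 9.72% rose and 21.5% fell. The 14 included Col3a1 (1.11 ± 0.15), Col14a1 (0.96 ± 0.16), Col6a6 (0.75 ± 0.18), Col6a1 (0.67 ± 0.13), Col5a2 (0.65 ± 0.12), Col24a1 (0.59 ± 0.09) and Col1a2 (0.57 ± 0.16) as log2 changes. Of these 7, the LV called only Col3a1, at 0.54 ± 0.15. Col24a1 was tested only through its RV P3 libraries, which favours a rise to RV P3. A difference between the chambers in this step was not tested. With upper-quartile scaling 10 rose and 3 fell in the LV (13.0% and 10.6% of all tested entries) and 17 rose and 1 fell in the RV (17.4% and 14.1%). In the 10 libraries with NM_008710 at 1 RPKM or more, with 1 library in each P3 group, 3 rose in the LV (2.27% of entries rose and 2.52% fell) and 10 in the RV (4.21% and 6.20%), and none fell.

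From P3 to P7 in the LV, 8 chains rose and 2 fell, where 6.56% of all tested entries rose and 27.9% fell. The 8 were Col15a1, Col4a1, Col4a2, Col4a4, Col5a3, Col6a1, Col6a2 and Col8a1, so the type IV and type VI chains made most of their LV calls in the later step. Col11a1 (-0.94 ± 0.14) and Col9a1 fell. In the RV, Col15a1 (0.95 ± 0.16) and Col5a3 (0.79 ± 0.19) rose and Col11a1, Col13a1, Col24a1, Col9a1 and Col9a2 fell, where 2.50% rose and 14.8% fell. Col24a1 and Col9a1 were tested only through P3 libraries, which favours a fall from P3. Without RV P7 replicate 1 the RV comparison called 1 chain. In the 10 libraries with NM_008710 at 1 RPKM or more, where each P3 and P7 group has 1 library, limma called 1 chain in the LV (0.862% of entries rose and 3.82% fell) and 0 in the RV (0.122% and 0.422%).

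Fewer chains passed the test between the chambers than between the ages. At P0 no tested chain passed the test between the chambers in limma, where 0.0562% of all tested entries were higher in the RV and 0.0844% lower, and 5 chains had an unadjusted p under 0.05 (Col11a1, Col14a1, Col6a1, Col6a2 and Col6a6, all with lower RV means). At P3 no chain passed, where 0.600% of entries were higher and 0.225% lower, and 6 had an unadjusted p under 0.05 (Col13a1, Col1a2, Col23a1, Col24a1, Col3a1 and Col5a2, all with higher RV means). With upper-quartile scaling Col24a1 was higher in the RV at P3, where 1.25% of entries were higher and 0.478% lower. Col24a1 passed the filter only through RV P3, which favours this call. At P7 no chain passed, where 0.0750% were higher and 0.0844% lower, and Col4a1 and Col8a1 had an unadjusted p under 0.05. None passed for the average over the ages (0.797% of entries higher and 0.816% lower, 5 chains unadjusted) or for the difference between chambers in the P0 to P7 change (0.0187% and 0.0187%, 4 chains unadjusted). The share of all tested entries at an unadjusted p under 0.05 was not counted, so the unadjusted counts carry no conclusion.

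LV and RV libraries of the same age and number deviated together, so the chambers were also compared within these pairs. At P3 this paired fit called 6 chains higher in the RV, where 3.06% of all tested entries were higher and 2.93% lower. They were Col3a1 (0.41 ± 0.08), Col1a2 (0.36 ± 0.08), Col1a1 (0.34 ± 0.09), Col24a1 (0.39 ± 0.10), Col13a1 (0.56 ± 0.12) and Col23a1 (0.41 ± 0.11), with limma adjusted p from 0.00362 to 0.0344. The group thus held the type III and type I chains and both tested transmembrane chains, and no basement-membrane chain. Its member Col24a1 was tested only through its RV P3 libraries. Averaged over the ages, Col23a1 was higher in the RV (0.29 ± 0.07, limma adjusted p = 0.0146) and Col15a1 lower (-0.27 ± 0.06, limma adjusted p = 0.0113), where 3.02% of entries were higher and 5.63% lower. At P0 (0.506% of entries higher and 0.412% lower), at P7 (0.441% and 0.562%) and for the difference in the P0 to P7 change (0.159% and 0.169%), the paired limma fit called 0 chains, with 9, 4 and 11 at an unadjusted p under 0.05. The matching share of all tested entries was not counted, so the unadjusted counts carry no conclusion. Col15a1 was lower in the RV library of each of the 8 pairs.

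The P3 values show the size of these differences. Col3a1 stood at 457, 287 and 424 RPKM in LV P3 libraries 1, 2 and 3 and at 572, 409 and 561 RPKM in the RV libraries of the same numbers. Col1a1 stood at 208, 108 and 176 RPKM in the LV and 236, 161 and 211 RPKM in the RV. In both genes number 2 was the lowest library of each chamber, and the chambers overlapped without the pairing. Col24a1, a fibrillar chain of developing bone and eye, stood at 0.769, 0.628 and 0.794 RPKM in the LV and 1.36, 1.31 and 1.14 RPKM in the RV, with no overlap. Only these 3 RV P3 libraries reached 1 RPKM for Col24a1, so the filter let it in through the group where it was high. For Col13a1 every RV P3 library lay above every LV P3 library. Col23a1 stood at 0.324, 0.242 and 0.409 RPKM in LV P3 and at 0.566, 1.044 and 0.705 RPKM in RV P3, also with no overlap.

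**Figure D5:**
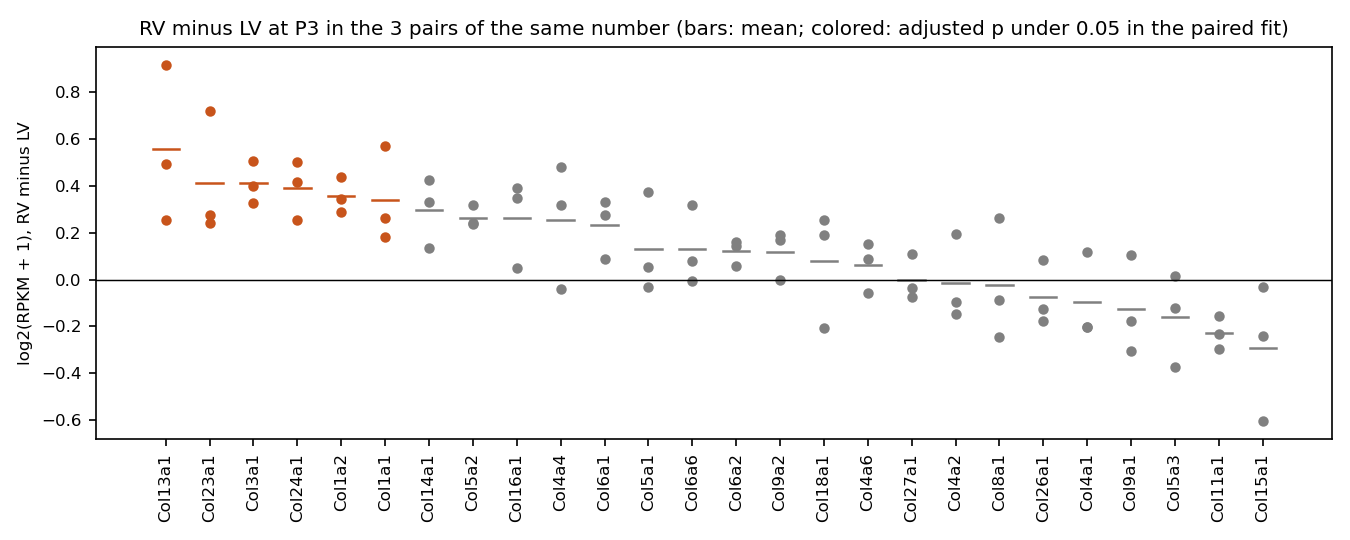
Difference RV minus LV at P3 in log2(RPKM + 1) for the 26 tested chains, with 1 point for each of the 3 pairs of the same number and a bar at their mean; orange marks the 6 chains with an adjusted p under 0.05 in the paired fit. The 6 have all 3 points above 0, and Col15a1 and Col11a1 have all 3 below 0.

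Over the 26 tested chains at P3, 11 were higher in the RV in every pair and 2 in the LV, against 17.5% and 24.5% of all tested entries. The 11 include Col24a1, which passed the filter only through its RV P3 libraries. At P0, 2 were higher in the RV in every pair and 14 in the LV, against 11.1% and 32.0%. At P7, with 2 pairs, 10 were higher in the RV in both and 4 in the LV, against 21.5% and 27.5%. Markers of other cells differed between the chambers at P3 as well. The summed level of fibroblast markers was 247 to 280.0 RPKM in LV P3 and 342 to 385 RPKM in RV P3, and 3 of 6 tested markers were higher in the RV. Epicardial markers summed to 22.2 to 25.9 RPKM in LV P3 and 50.4 to 69.7 RPKM in RV P3, with 3 of 6 higher. Both marker counts are from the unpaired fit, where 0.600% of all tested entries were higher in the RV and 0.225% lower. The paired fit called 3 fibroblast and 4 epicardial markers higher, where 3.06% of entries were higher and 2.93% lower. Their part in the chamber differences was not tested.

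Genes that make, cut and bind collagen are given by role, and all counts here are for P0 to P7. Over all tested entries 11.8% rose and 53.0% fell in the LV and 9.81% rose and 46.1% fell in the RV, or 24.4% and 25.3%, and 19.8% and 20.6%, after upper-quartile scaling. Of 11 tested enzymes and chaperones that modify and fold the chains, 2 rose and 7 fell in the LV and 1 rose and 7 fell in the RV. After upper-quartile scaling 3 rose and 2 fell in each chamber. The share of these 11 that fell was thus above that of all entries as deposited and below it after scaling. Serpinh1, the collagen-specific chaperone HSP47, fell from 38.3 to 22.7 RPKM in the LV and from 41.9 to 21.98 RPKM in the RV as group means (log2 changes of -0.73 ± 0.14 and -0.90 ± 0.15). Colgalt2, which adds galactose to hydroxylysine, rose from 1.65 to 3.36 RPKM in the LV.

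Of 10 tested genes of propeptide removal and cross-linking, 4 rose and 2 fell in the LV and 4 rose and 1 fell in the RV, or 6 and 1, and 7 and 1, after upper-quartile scaling. Pcolce2, an enhancer of the procollagen C-proteinase, rose from 0.398 to 8.41 RPKM in the LV and from 0.425 to 8.18 RPKM in the RV (log2 changes of 2.75 ± 0.16 and 2.71 ± 0.17). Loxl1, an oxidase of the cross-linking family, rose from 20.5 to 44.5 RPKM in the LV, and Adamts2, the procollagen N-proteinase, from 0.9998 to 3.14 RPKM. Of 13 fibril-associated proteins, 9 rose and 1 fell in the LV and 11 rose in the RV, or 11 and 12 rose and none fell after upper-quartile scaling. Lum, the proteoglycan lumican that limits fibril width, rose from 63.7 to 152 RPKM in the LV and from 65.8 to 146 RPKM in the RV. Prelp and Tnxb also rose in both chambers.

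Of 7 basement-membrane partners, 4 rose and 1 fell in the LV and 3 rose and 1 fell in the RV, or 5 rose and none fell in each after upper-quartile scaling. Sparcl1 rose from 154 to 263 RPKM in the LV, and Pxdn, the peroxidase that forms the sulfilimine cross-links of type IV collagen, from 46.5 to 68.7 RPKM. Of 7 tested collagen receptors, 2 rose and 4 fell in the LV and 2 rose and 5 fell in the RV, where the share that fell in the LV stood near that of all entries. Adgrg6, an adhesion receptor that binds type IV collagen, fell from 5.54 to 0.749 RPKM in the LV and from 8.04 to 1.02 RPKM in the RV (log2 changes of -1.90 ± 0.17 and -2.12 ± 0.19). Ddr1, a receptor tyrosine kinase for collagen, fell from 2.13 to 0.386 RPKM in the LV and Itga2, an integrin chain, from 2.71 to 1.35 RPKM. After upper-quartile scaling 2 receptors rose and 3 fell in the LV, and 2 rose and 2 fell in the RV.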

How the data were processed

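RNA-seq of 17 ventricle libraries was analysed from 1 deposited table of values for each library. The deposited values were taken as RPKM, an inference from the values themselves, since the low values were whole multiples of 1 read in 1226 of 1639 low entries (tolerance 0.02). The aligner STAR 2.4.0j and the build mm10 appear, per the submitters' processing notes, with no settings. The sources used here do not name the counting tool, the annotation version or filters. Per the labels, total RNA was read as strand-specific paired ends. Of 20624 entries, 20379 were named from RefSeq, 76 from GENCODE and 169 not at all.

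Values were tested as log2(RPKM + 1) with limma 3.58.1 in R 4.3.3 (trended empirical Bayes, means of 6 groups over 17 libraries, two-sided, Benjamini-Hochberg over the 10668 entries that reached 1 RPKM in 2 or more libraries, 11 comparisons). Python 3.11.15, numpy 2.4.6, pandas 2.3.3 and matplotlib 3.10.9 made the tables and figures, and the fit was tested on simulated data. Same-numbered LV and RV libraries of an age deviated together (8 pairs, r from 0.269 to 0.587). In 16 other pairs r was -0.402 to 0.0940. Deviations from a group mean sum to 0 within the group, so these 16 are not an independent contrast. The numbers were taken to pair the chambers within an age. The labels do not say whether same-numbered libraries share an animal. Across ages, r was -0.0735 to 0.180. Alternatives were a pseudocount of 0.1, no filter, a stricter filter (2 RPKM in 3 libraries), upper-quartile scaling, summed entries, only the groups compared, replicate blocks and leaving out each library. Per-library values are given for chosen chains of each class, chiefly those with high means or those called. The other chains are given by group means, ranges or log2 changes. Partner genes are the called ones with the largest LV changes. Members and lists were chosen with earlier results of these data known.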

Additional observations from a re-analysis of the deposited data

How the results depend on the processing

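From P0 to P7, 12 of 15 LV calls and 14 of 18 RV calls were made under every alternative that tested the chain. None reversed. Col4a4 and Col23a1 did not pass the stricter filter and so were not tested there. Leaving out each library gave 14 to 16 calls in the LV and 16 to 19 in the RV for that step, 6 to 12 and 13 to 17 from P0 to P3, and 7 to 11 and 1 to 8 from P3 to P7. It gave 0 to 1 for the chambers at P3 and 0 to 1 averaged over the ages. With upper-quartile scaling 13 chains were called in the LV from P0 to P3, and 1 between the chambers at P3. The fibrillar median from P0 to P7 became 0.34 in the LV (from -0.01) and 0.58 in the RV, and the basement-membrane median 0.84 and 0.82. This scaling moved the median of all entries by the shift given in the report. The stricter filter left 4 calls in the RV from P3 to P7. In the 10 libraries with NM_008710 at 1 RPKM or more, an alternative chosen after seeing the data with fewer samples, 3 and 10 chains were called from P0 to P3 in the LV and RV, and 1 and 0 from P3 to P7. With the state of that entry as a factor, also chosen after seeing the data, 15 and 18 chains were called from P0 to P7. Without the filter, 11 of the 43 chains rose and 10 fell in the LV over that step, and 15 rose and 6 fell in the RV. Of 20624 entries, 7.68% rose and 29.9% fell in the LV, and 6.04% and 23.6% in the RV.

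A replicate block over all ages called 1 chain between the chambers at P3, and a replicate block within each age called 6 at P3 and 2 averaged over the ages. The number of reads limits the chains under 1 RPKM, which were tested only without the filter.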
